A study of Mus musculus with 146 samples.

Results

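The 6 genes described here, H2-DMa, H2-DMb1, H2-Oa, H2-Ob, Ctss and Ifi30, encode the proteins that cut antigens and load the resulting peptides onto major histocompatibility complex (MHC) class II molecules. They were taken by name, and 6 of the 716 genes of the disease-stage table and 3 of the 204 genes of the interferon gamma receptor table are members (H2-DMa, H2-DMb1 and H2-Oa in the second). The study followed mRNA on tagged ribosomes of brain microglia through experimental autoimmune encephalomyelitis (EAE) of the relapsing-remitting kind, which models multiple sclerosis in mice. All mice were Cx3cr1-CreER:RPL22-HA animals on an F1 of C57BL/6 * SJL background, and all received 5 mg of tamoxifen by gavage on 4 occasions at the age of 4 to 6 weeks. The Cre recombinase then turns on a haemagglutinin (HA) tag on the ribosomal protein RPL22 in cells that use the Cx3cr1 promoter, which are microglia and also other long-lived macrophages. From each brain homogenate, tagged ribosomes were precipitated with anti-HA, a mock precipitate was made with an IgG1 isotype antibody, and an aliquot of the homogenate was kept as input. For each of these 3 kinds of library there were 6 from non-immunized mice, 4 from initiation, 6 from the maximum of disease, 8 from remission, 5 from cure and 4 from relapse. The non-immunized libraries carry the EAE treatment tag as well, and the title decided their group. In a second set, Ifngr ko/fl mice were set against mice that were Ifngr ko/wt, both with the same Cre and RiboTag genotype and 4 libraries of each kind per genotype. Both of these genotypes carry 1 knockout allele in every cell, and in ko/fl mice the Cre can also remove the other allele. Titles of that set name EAE but no stage. Age at sampling was not given in the sources used here.

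Class II molecules pick up peptides in late endosomes. The invariant chain, Cd74, blocks the groove until proteases trim it, with cathepsin S (Ctss) making the last cut that leaves the fragment CLIP, and the thiol reductase GILT (Ifi30) opens disulfide bonds of antigens there. The DM heterodimer, made of the H2-DMa and H2-DMb1 chains, removes CLIP and edits the peptides that bind. The DO heterodimer, made of the H2-Oa and H2-Ob chains, binds DM and inhibits it, and is best known from B cells, dendritic cells and thymic epithelium. Transcription of the class II, DM and invariant chain genes runs through the coactivator Ciita, which interferon gamma induces and which acts at X and Y box elements near the start sites. In microglia, class II is low in the healthy brain and is a standard marker of activation.

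The 4 DM and DO genes lie together on chromosome 17. In mm10 with the GENCODE M21 annotation, H2-Oa spans chr17:34092340-34095234, H2-DMa chr17:34119541-34139101, H2-DMb1 chr17:34153072-34160230 and H2-Ob chr17:34238903-34254414, all on the plus strand. Ctss spans chr3:95526786-95556403 on the plus strand, and Ifi30 spans chr8:70762774-70766663 on the minus strand. The promoters below, from RefSeq on GRCm38.p6, run from 250 bases before to 50 after the start site. They are shown because the 2 DO chains, whose mRNAs moved apart in the precipitates, both carry an X1 core and a Y core, and because Ctss is the member with an interferon regulatory factor (IRF) element. Capitals mark the motif letters found on either strand.

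H2-Oa, chr17:34092129-34092428, plus strand: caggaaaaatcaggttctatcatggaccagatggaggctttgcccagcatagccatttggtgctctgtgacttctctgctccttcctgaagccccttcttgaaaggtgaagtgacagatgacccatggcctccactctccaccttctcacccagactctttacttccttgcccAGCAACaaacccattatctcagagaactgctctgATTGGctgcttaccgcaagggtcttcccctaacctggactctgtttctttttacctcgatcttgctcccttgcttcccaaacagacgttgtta

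H2-Ob, chr17:34238655-34238954, plus strand: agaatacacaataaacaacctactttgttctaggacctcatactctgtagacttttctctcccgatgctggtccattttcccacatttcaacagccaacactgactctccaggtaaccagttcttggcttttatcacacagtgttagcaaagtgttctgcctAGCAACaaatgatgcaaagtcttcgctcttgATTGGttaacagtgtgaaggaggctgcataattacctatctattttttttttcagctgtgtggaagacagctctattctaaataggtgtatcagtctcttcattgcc

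H2-DMb1, chr17:34152941-34153240, plus strand: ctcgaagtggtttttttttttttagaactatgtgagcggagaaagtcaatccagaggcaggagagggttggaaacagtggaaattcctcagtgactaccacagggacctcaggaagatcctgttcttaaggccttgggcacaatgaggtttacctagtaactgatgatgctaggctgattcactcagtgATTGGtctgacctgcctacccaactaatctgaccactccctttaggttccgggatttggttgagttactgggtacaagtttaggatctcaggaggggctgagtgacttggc

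Ctss, chr3:95526536-95526835, plus strand: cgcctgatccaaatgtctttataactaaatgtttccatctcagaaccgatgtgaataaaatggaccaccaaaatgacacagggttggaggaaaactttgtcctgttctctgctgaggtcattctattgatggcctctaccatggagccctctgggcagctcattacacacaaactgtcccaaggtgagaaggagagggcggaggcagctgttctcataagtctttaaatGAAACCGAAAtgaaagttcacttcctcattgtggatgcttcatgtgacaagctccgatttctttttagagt

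The search covered CCAAT (the Y box core, ATTGG on the other strand), AGCAAC (the X1 box core), an IRF element (GAAA, any 2 bases and GAAA again) and TTCNNNGAA (a STAT element), and none of the hits shown overlap. In H2-Oa, AGCAAC starts at position -77 and ATTGG at -43 from the start site; in H2-Ob they start at -88 and -57. H2-DMb1 holds ATTGG at -61, and Ctss holds GAAACCGAAA at -21. Of the windows not printed, the first of H2-DMa holds no match, its second holds ATTGG at -198, and that of Ifi30 holds none of the 4 motifs. Such letters are common: of 32851 promoters, 37.4% hold CCAAT, 14.8% AGCAAC, 3.44% the IRF element and 8.30% TTCNNNGAA. Among the 685 promoters of stage-table genes the shares are 39.9%, 12.0%, 8.32% and 7.88%.

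Values are reads per gene divided by a size factor for the library. The stage table holds only genes that the authors selected for at least a 2-fold difference between some pair of stages, and for being at least 2-fold above input and IgG in at least 1 stage, so large shares of it pass any test between stages. Its median gene therefore cannot be taken as unchanged, and rescaling on it shifts all genes of a library alike. Over the table genes, the anti-HA libraries of the stages hold 152704 to 880410 reads, the inputs 49902 to 159540 and the IgG libraries 6775 to 162205. H2-Ob is the one thinly read member, with 5 to 110 reads in the anti-HA libraries (median 29), 0 to 12 in the inputs and 0 to 6 in IgG; the other members had at least 75 reads in every anti-HA library. Differences below are log2 differences of value + 1 from limma ± SE, and adjusted p is the Benjamini-Hochberg value over the whole table, called under 0.05; the + 1 understates the changes of H2-Ob. In these bulk libraries, fewer cells of a type and less RNA per cell cannot be told apart, and the labels do not say that replicates are separate animals, so p-values may measure technical spread only. On principal component 3 of the 33 inputs, which holds 4.01% of the variance, the 11 libraries of cure, relapse and remission 7 and 8 scored -0.29 to -0.12, apart from the other 22 at -0.04 to 0.32. Cure and relapse therefore share this side with no non-immunized library, and results with a term for the side are given beside the calls that it ends or adds. Only remission holds libraries of both sides, so the term rests on remission 7 and 8 against the other remission libraries. That estimate is then applied to cure and relapse, where it could not be checked.

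In the precipitates, the mRNAs of both DM chains, of H2-Oa and of Ifi30 were severalfold higher at the maximum of disease than in non-immunized mice, Ctss was about 2.05-fold higher (0.15 log2 lower when libraries are rescaled on the table's median gene), and H2-Ob was lower. Of the 6 members, 4 were called higher and 1 lower at initiation, where 74.4% of the table was called higher and 16.2% lower. At the maximum 5 were higher and 1 lower (71.5% and 17.2% of the table), and in remission 5 were higher and none lower (62.2% of the table higher). In cure 2 were higher (24.4%), and in relapse 4 were higher and 1 lower (30.7% and 14.9%). The members' median difference was 1.14 at initiation, 2.09 at the maximum, 1.42 in remission, 0.70 in cure and 0.86 in relapse. The same medians over the table were 1.24, 1.19, 0.80, 0.19 and 0.44. The authors' scaling gave 512 higher and 123 lower genes over the table at the maximum, and rescaling on the table's median gene gave 225 and 197; at initiation the splits were 533 and 116, then 228 and 168. All 5 comparisons share the non-immunized libraries.

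**Figure D1:**
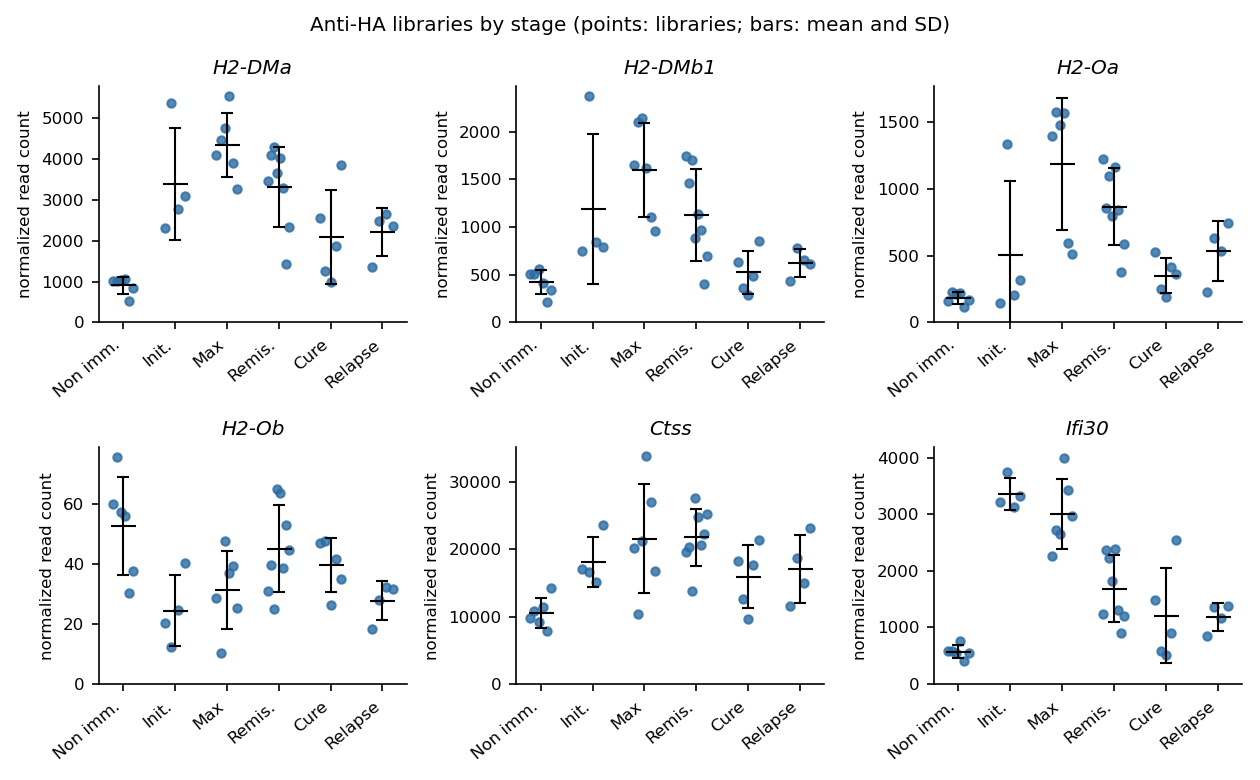
Value (reads divided by the library's size factor, linear axis from 0) of each member in every anti-HA library by stage, with the group mean as a line and its SD as a bar. H2-DMa, H2-DMb1, H2-Oa and Ifi30 sit lowest in the non-immunized group, and H2-Ob has its highest mean there (52.7). Ctss rises from a mean of 10537 to 21549 at the maximum, a rise that is not kept when libraries are rescaled on the table's median gene. That gene cannot be taken as unchanged in a table selected for stage differences.

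H2-DMa, the alpha chain of DM, was higher in the precipitates at every stage of disease. In non-immunized mice its values ran from 519 to 1059 (median 1007), and at initiation they were 2301, 5382, 2778 and 3095. At the maximum they ran from 3278 to 5536 (median 4282), and in remission from 1441 to 4299 (median 3554). In cure the values were 2549, 1259, 981, 1862 and 3858, and in relapse 1357, 2482, 2665 and 2372. No library of initiation, the maximum, remission or relapse overlapped the non-immunized range, and 4 of 5 cure libraries lay above it. The log2 differences from non-immunized mice were 1.85 ± 0.33 at initiation (adjusted p = 1.36e-05), 2.27 ± 0.29 at the maximum (4.94e-08) and 1.83 ± 0.28 in remission (1.31e-06). In cure the difference was 1.07 ± 0.31 (0.00535) and in relapse 1.27 ± 0.33 (0.00215); with the side as a term these became 2.12 and 2.32, and the authors' deposited table gives 1.82 and 1.90. By mean level the order was non-immunized, cure, relapse, remission, initiation and maximum, and each group's range overlapped that of its neighbour.

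H2-DMb1, the beta chain, followed H2-DMa up to remission, but its library values lay closer to baseline afterwards. Values ran from 211 to 562 in non-immunized mice (median 459) and were 749, 2369, 845 and 786 at initiation. They ran from 953 to 2147 at the maximum (median 1635) and from 403 to 1741 in remission (median 1053). Both early groups lay wholly above the non-immunized range, as did 7 of 8 remission libraries. Cure libraries held 633, 362, 284, 489 and 851, and relapse libraries 435, 783, 656 and 615, and both groups overlapped the non-immunized values. The gene rose by 1.37 ± 0.38 at initiation (limma adjusted p = 0.00164), 1.92 ± 0.34 at the maximum (9.33e-06) and 1.34 ± 0.32 in remission (0.000549). Rescaling on the table's median gene left 0.26 at initiation, which was not called (0.457). The differences of 0.27 ± 0.36 in cure (0.594) and 0.59 ± 0.38 in relapse (0.21) were not called; with the side as a term they were 1.54 and 1.86, and called. The authors' deposited values are 1.30 in cure and 1.55 in relapse, neither under 0.05 in their own test (adjusted p = 0.202 and 0.0890). H2-DMb2, a near-identical copy of H2-DMb1 that neighbours it, is in neither table, so how reads of the pair were assigned is unknown and the H2-DMb1 values are uncertain to that extent. Within a library, the log2 ratio of the beta to the alpha chain was -1.14 ± 0.20 (SD, n = 6) among non-immunized mice, -1.49 ± 0.34 at the maximum (n = 6) and -1.94 ± 0.16 in cure (n = 5). The cure ratios, -2.18 to -1.78, did not overlap the non-immunized ones, -1.35 to -0.88.

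H2-Oa, the alpha chain of the inhibitor DO, was higher at the maximum, in remission and in relapse, and its initiation libraries were split. Non-immunized values ran from 118 to 225 (median 189), and initiation gave 149, 1330, 207 and 318. Replicate 2 thus stood well above the other 3 initiation libraries, while 2 of the 4 lay within the non-immunized range. The difference at initiation, 0.92 ± 0.45, was not called by limma (adjusted p = 0.0569). Without initiation replicate 2 it was 0.26 (adjusted p = 0.549) and without replicate 4 it was 0.95 (0.0778). It was called without replicate 1 (1.31, adjusted p = 0.012) or replicate 3 (1.15, 0.0312), and by edgeR on the recovered reads (0.00302). At the maximum values ran from 512 to 1574 (median 1433) and in remission from 374 to 1220 (median 849.8), with no overlap with the non-immunized range in either stage. The rises were 2.58 ± 0.41 (1.32e-06) and 2.18 ± 0.38 (1.22e-05). Cure libraries held 525, 250.5, 193, 416 and 360, a difference of 0.87 ± 0.43 that was not called (0.102; 1.94 and called with the side as a term). Relapse libraries held 225, 629, 538 and 746, a rise of 1.45 ± 0.45 (adjusted p = 0.00994). The authors' deposited values are 1.82 in cure (adjusted p = 0.0903 in their own test) and 2.44 in relapse (0.00839).

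H2-Ob, the beta chain of DO, went the other way in the precipitates. Its values ran from 30.3 to 75.5 in non-immunized mice (median 56.5), were 20.5, 12.1, 24.8 and 40.1 at initiation, and ran from 10.3 to 47.6 at the maximum (median 32.9). They ran from 24.8 to 64.9 in remission (median 42.1), were 47.1, 47.7, 26.4, 41.6 and 35.0 in cure, and 18.3, 28.1, 32.4 and 31.7 in relapse. Every group overlapped the non-immunized range: 3 of 4 initiation libraries, 3 of 6 at the maximum and 2 of 4 in relapse lay below it, and none in any stage above it. H2-Ob fell by 1.14 ± 0.34 on the log2 scale at initiation (limma adjusted p = 0.00307), 0.80 ± 0.31 at the maximum (0.0158) and 0.88 ± 0.34 in relapse (0.0352). The differences in remission, -0.23 ± 0.29 (0.455), and cure, -0.38 ± 0.32 (0.377), were not called; after rescaling on the table's median gene the remission difference was -0.97 and called (0.00488). The call at the maximum rests on replicate 2, without which the difference was -0.53 (adjusted p = 0.0795). The relapse call was lost without any 1 of 6 libraries (adjusted p up to 0.131, without relapse replicate 1) and with the side as a term (-1.11, 0.09). In the authors' own test H2-Ob is under 0.05 at initiation (adjusted p = 0.0163), but not at the maximum (0.0671) or in relapse (0.411). Initiation 2 and maximum 2, which hold the lowest H2-Ob values of their groups, hold the highest H2-Oa values.

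The 2 DO chains thus moved apart. Within each library, the log2 ratio of H2-Ob to H2-Oa was -1.80 ± 0.28 (SD, n = 6) in non-immunized mice and -5.19 ± 1.13 (n = 6) at the maximum. It was -3.86 ± 1.87 (n = 4) at initiation, -4.22 ± 0.86 (n = 8) in remission, -3.05 ± 0.45 (n = 5) in cure and -4.13 ± 0.44 (n = 4) in relapse. The lowest non-immunized ratio, -2.13, lay above the highest ratio of every disease stage (-2.81 at initiation, -3.89 at the maximum, -2.80 in remission, -2.37 in cure and -3.55 in relapse). Apart from the + 1, a ratio within a library does not depend on how libraries are scaled, and the + 1 makes the ratios less negative than the reads alone would. By contrast, the ratio of H2-Oa to H2-DMa was -2.31 ± 0.19 in non-immunized mice and -1.99 ± 0.55 at the maximum, with overlapping ranges.

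**Figure D2:**
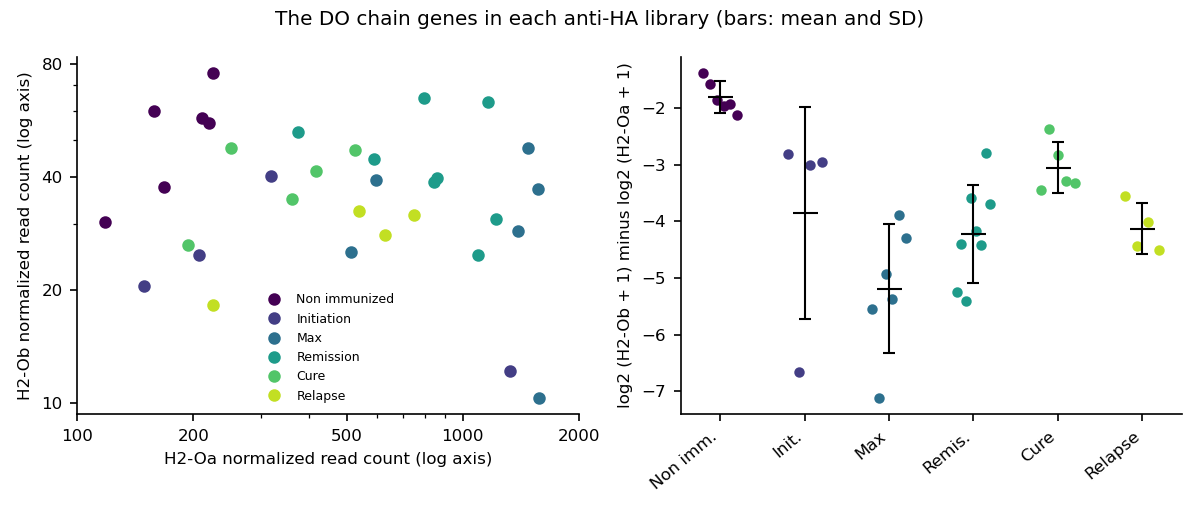
H2-Oa against H2-Ob values in each anti-HA library (left, log axes) and the log2 ratio of H2-Ob + 1 to H2-Oa + 1 by stage (right), with points coloured by stage. All non-immunized ratios lie between -2.13 and -1.38, above those of every disease stage.

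Ctss, the protease that trims the invariant chain, was the member whose called early rises did not keep their sign under another scaling of the libraries. Non-immunized values ran from 7785 to 14262 (median 10281), and initiation gave 17024, 16599, 15118 and 23543, all above that range. At the maximum values ran from 10400 to 33760 (median 20707), with 5 of 6 libraries above the non-immunized range, and in remission from 13785 to 27602 (median 21391), with 7 of 8 above it. Cure libraries held 18239, 12579, 9694, 17658 and 21379, and relapse libraries 11519, 18607, 14921 and 23131. Ctss was higher by 0.78 ± 0.27 at initiation (limma adjusted p = 0.00917) and 0.96 ± 0.24 at the maximum (0.000639) with the authors' scaling, and by -0.33 and -0.15 when libraries were rescaled on the table's median gene. That rescaling moves the table's median by -1.09 at initiation and -1.10 at the maximum. With the authors' scaling, more genes of the table were called higher than lower at both stages. A rise smaller than the median's shift changes sign by construction, so the rescaling cannot decide whether Ctss rose. The rise was 1.04 ± 0.23 in remission (0.00024) and 0.67 ± 0.27 in relapse (0.0436), and the cure difference of 0.56 ± 0.26 was not called (0.0789). After the rescaling those in remission (0.29, adjusted p = 0.262) and relapse (0.31, 0.326) were not called either. The relapse call was lost without any 1 of 7 libraries (adjusted p up to 0.182, without relapse replicate 4) and with the side as a term (0.344), and the cure difference was called without cure replicate 3 (0.73, adjusted p = 0.0252). In the authors' own test Ctss is under 0.05 at the maximum (adjusted p = 0.0182) and in remission (0.0223). It is not at initiation (0.156), in cure (0.658) or in relapse (0.555).

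Ifi30, which encodes the thiol reductase GILT, had its highest mean at initiation. Non-immunized values ran from 400.3 to 754 (median 566), and the initiation libraries lay close together at 3223, 3752, 3122 and 3324. They ran from 2269 to 3997 at the maximum (median 2845) and from 905 to 2385 in remission (median 1561). None of these groups overlapped the non-immunized range, nor did relapse at 845, 1368, 1157 and 1376. The cure libraries, at 1484, 589, 511, 903 and 2536, spread widest for their mean, and 2 of 5 lay inside the non-immunized range. The rises were 2.58 ± 0.33 at initiation (limma adjusted p = 7.49e-08), 2.40 ± 0.29 at the maximum (1.54e-08) and 1.50 ± 0.27 in remission (2.26e-05). In relapse the rise was 1.06 ± 0.33 (0.00877). In cure it was 0.84 ± 0.31 (0.026), a call lost without cure replicate 5 (0.51, adjusted p = 0.172), cure replicate 1 (0.09) or non-immunized replicate 5 (0.0613). The authors' deposited values are 1.41 in cure and 1.39 in relapse, neither under 0.05 in their own test (adjusted p = 0.0954 and 0.112).

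Between disease stages, few members passed the test up to remission. From initiation to the maximum, 7.26% of the table was called higher and 1 member, H2-Oa, rose, by 1.67 ± 0.45 (limma adjusted p = 0.0197); the call was lost without initiation replicate 1 (1.27, adjusted p = 0.158), 3 (0.0885) or 4 (0.0668), and with edgeR (0.0685). From the maximum to remission, where 16.6% of the table was called lower, Ifi30 fell by 0.90 ± 0.27 (0.0248); the call was lost without maximum replicate 4 (0.06), remission 7 (0.0653) or remission 8 (0.0523), and without both of the last (-0.70, 0.147), and with the side as a term (-0.70, 0.138). Within remission, replicates 7 and 8 held the lowest values of 4 members. H2-DMa was 1441 and 2331 there against 3287 to 4299 in replicates 1 to 6, and H2-DMb1, H2-Oa and Ifi30 likewise did not overlap, whereas H2-Ob and Ctss did. Outside the members, H2-Aa and Cd74 did not overlap either, while Ciita did. The share over the whole table is not given here. From remission to cure (33.7% of the table called lower), H2-DMa fell by 0.76 ± 0.29 (0.044), H2-DMb1 by 1.07 ± 0.34 (0.0194) and H2-Oa by 1.31 ± 0.40 (0.0176). None of the 3 was called with the side as a term (0.03, -0.12 and -0.52, each at adjusted p = 0.998), or without cure replicate 3 (-0.53, -0.88 and -1.12, adjusted p 0.223, 0.0972 and 0.0834) or cure replicate 2 (0.147, 0.065 and 0.0559). H2-DMa also lost its call without any 1 of remission 1 to 6 or cure replicate 4, and with edgeR (0.0725). Ifi30 (-0.66, adjusted p = 0.0699) was called lower in cure without cure replicate 5 (-0.99, 0.00416), cure replicate 1 or remission replicate 7, and Ctss without cure replicate 5 (-0.60, 0.0426). Rescaled on the table's median gene, the 3 falls were -0.17, -0.48 and -0.73, and none was called. The authors' deposited values for the 3 are -0.15, -0.27 and -0.58 (adjusted p = 0.910, 0.868 and 0.709 in their own test). For the H2-Oa rise to the maximum their value is 1.25 (0.258), and for the Ifi30 fall to remission it is -0.78 (0.272).

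Relapse levels were compared with those at the maximum and in remission. Against the maximum, where 49.2% of the table was called lower, 4 members were lower in relapse: H2-DMa by -0.996 ± 0.33 (limma adjusted p = 0.0129), H2-DMb1 by -1.33 ± 0.38 (0.00554), H2-Oa by -1.14 ± 0.45 (0.0352) and Ifi30 by -1.34 ± 0.33 (0.00179). With the side as a term these were 0.05, -0.06, -0.08 and -0.53, and none was called. Rescaled on the table's median gene they were -0.24, -0.57 and -0.38 for H2-DMa, H2-DMb1 and H2-Oa, not called, and Ifi30 kept its call. The authors' deposited values for the 4 members are -0.35, -0.37, -0.26 and -1.01. None is under 0.05 in their own test (adjusted p = 0.734, 0.809, 0.901 and 0.316). Without relapse replicate 1, H2-DMa (-0.77, adjusted p = 0.0742) and H2-Oa (-0.77, 0.19) were not called; H2-Oa also lost its call without maximum 1, 2, 3 or 4 or relapse 3. Against remission, limma called no member and 0.279% of the table, and edgeR called 2 genes of the table. H2-DMb1 alone was under 0.05 before adjustment (-0.74 ± 0.36, limma adjusted p = 0.226). With remission 7 and 8 left out, H2-DMa (-0.82, adjusted p = 0.0476) and H2-DMb1 (-1.06, 0.0327) were called lower in relapse. The 95% intervals of the differences ran from -1.19 to 0.08 for H2-DMa and from -1.62 to 0.14 for H2-Oa, and both intervals hold no change as well as a fall of over 2-fold.

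**Figure D3:**
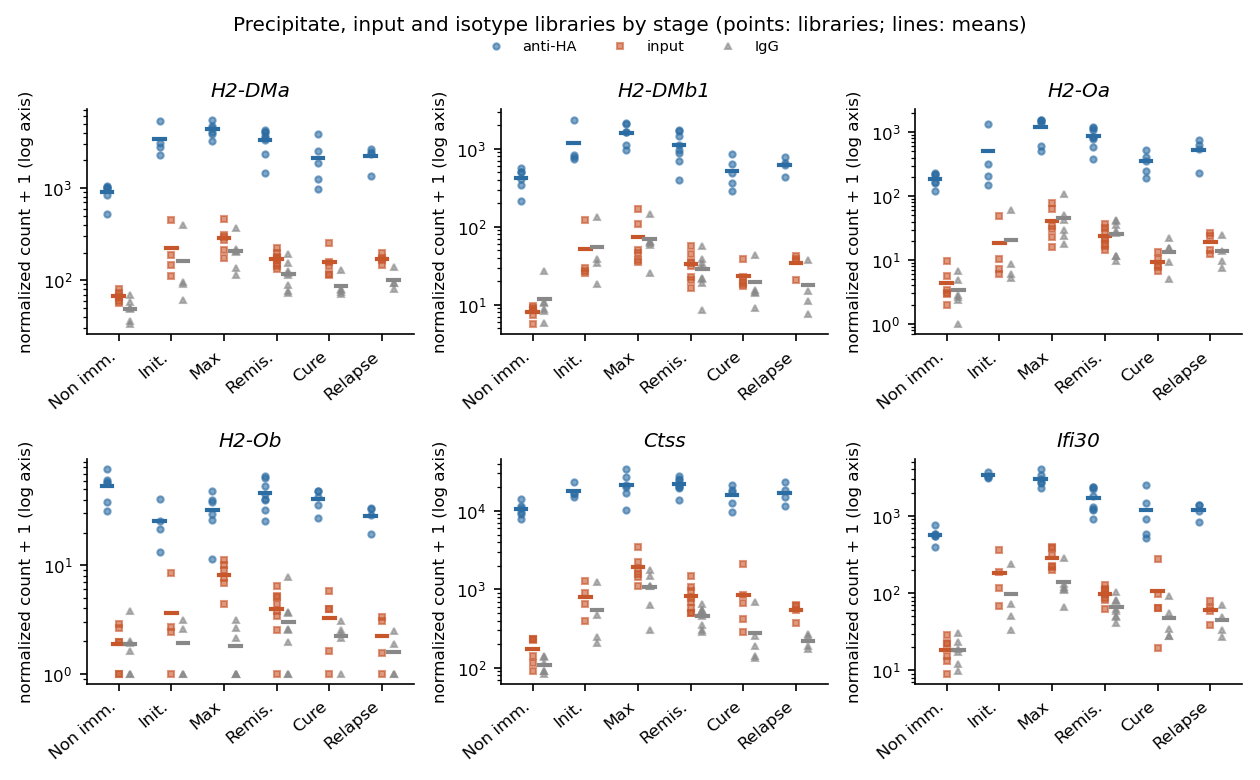
Value of each member (log axis) in input, IgG and anti-HA libraries by stage, with 1 point per library and lines through the group means. The anti-HA values stand above the input and IgG values for all 6 genes, and the distance between the anti-HA and input means is narrower at the maximum than in non-immunized mice for every member but H2-DMa.

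All 6 members were enriched in the anti-HA precipitates at every stage, over both the homogenate and the isotype control. Against input, limma called 6 of 6 in each stage, where it called higher 82.1% of the table in non-immunized mice, 94.1% at initiation, 93.4% at the maximum, 95.7% in remission, 83.4% in cure and 85.6% in relapse. Against IgG it also called 6 of 6 in each stage, with 83.0%, 95.4%, 95.3%, 96.2%, 87.4% and 88.1% of the table called higher. Selection of the table for such enrichment makes these shares high. The IgG mean was between 1.03% and 5.30% of the anti-HA mean for every member and stage. The ratio of mean anti-HA to mean input values was 13.8 for H2-DMa in non-immunized mice and 15.2 at the maximum. It was smaller at the maximum than in non-immunized mice for the other 5 members. For H2-Ob it went from 58.6 to 4.38, for Ctss from 61.7 to 11.2, for Ifi30 from 32.5 to 10.4, for H2-DMb1 from 59.0 to 21.7 and for H2-Oa from 53.7 to 29.9. At the maximum the enrichment of H2-Ob was 1.91 ± 0.42 (adjusted p = 2.69e-05), and with libraries rescaled on the table's median gene it was 0.04 and not called (0.954); at initiation the same rescaling took it from 3.10 to 1.24, not called (0.0803). The table was selected for enrichment over input, so this rescaling takes enrichment out of every gene. It moved the table's median by -1.92 at the maximum and -2.17 at initiation, and cannot decide whether H2-Ob was enriched.

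In the homogenate, the members rose as well, and H2-Ob rose with them. Limma called 5 of 6 members higher at initiation (39.2% of the table called higher), 6 of 6 at the maximum (53.4%), and 5 of 6 in remission (33.9%), cure (24.4%) and relapse (26.8%); H2-Ob was the gene not called. The H2-Oa call at initiation rests on input 2, without which the difference of 1.67 was 0.99995 (adjusted p = 0.0778). With the side as a term, limma called only 2 members in cure inputs, where H2-DMb1 (adjusted p = 0.0631), H2-Oa (0.25) and Ifi30 (0.0679) were lost, and 3 in relapse inputs, where Ctss (0.0809) and Ifi30 (0.123) were lost. The H2-Oa difference in cure inputs, 1.24, was also not called with edgeR (adjusted p = 0.1), after rescaling on the table's median gene (0.0568), with a pseudocount of 10 (0.267), or without any 1 of 7 libraries (up to 0.0926). At the maximum the input of H2-Ob held 5.80, 8.96, 3.41, 6.63, 8.10 and 10.1, against 0 to 1.87 in non-immunized inputs (median 0.957), where 2 of 6 libraries held no read. All 6 lay above the non-immunized range, and the rise was 2.16 ± 0.47 (0.000203). The input of Ctss went from 90.5 to 229 (median 182) in non-immunized mice to 1105 to 3415 (median 1697) at the maximum, a rise of 3.49 ± 0.37 (2.57e-09). Ifi30 rose by 4.01 ± 0.41 (9.98e-10) and H2-DMa by 2.04 ± 0.25 in the same inputs, from means of 17.5 ± 7.20 to 288 ± 88.4 and of 66.0 ± 8.55 to 286 ± 98.5 (SD, n = 6 each). No input library at the maximum overlapped the non-immunized range for any member. The share of the table without such overlap is not given here, so the members are not set against other genes in this.

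**Figure D4:**
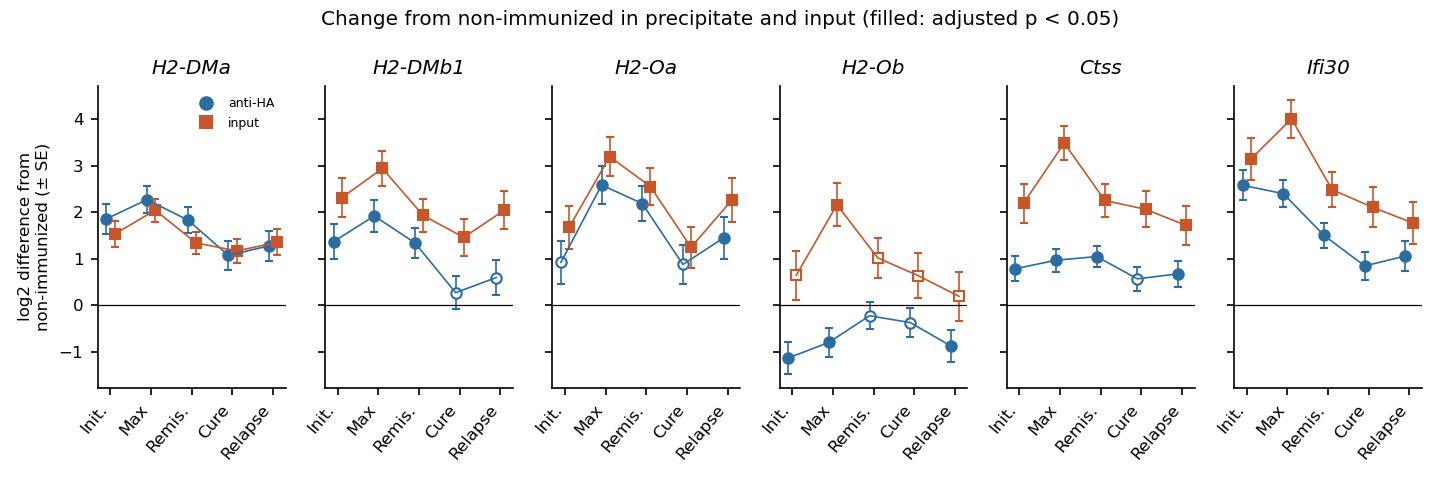
Log2 difference from non-immunized mice (limma on log2(value + 1), bars are ± SE) of each member at each stage, in the anti-HA libraries and in the inputs. At the maximum H2-Ob is -0.80 in the precipitate and 2.16 in the input, while H2-DMa is 2.27 and 2.04; Ctss is 0.96 in the precipitate there, or -0.15 after rescaling on the table's median gene.

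The test of whether the change differed between precipitate and homogenate separated the members. At the maximum, where the test called 22.6% of the table in the negative direction, 3 of 6 members changed less in the precipitate than in the input. The difference of the changes was -2.96 ± 0.60 for H2-Ob (limma adjusted p = 4.21e-05), -2.52 ± 0.50 for Ctss (3.29e-05) and -1.61 ± 0.53 for Ifi30 (0.0101), and these calls held without any single library. It was 0.23 ± 0.42 for H2-DMa (95% interval -0.61 to 1.06), -1.02 ± 0.58 for H2-DMb1 and -0.61 ± 0.67 for H2-Oa, and none of these 3 was called. H2-DMb1 was called with the replicate number as a block (adjusted p = 0.0107), which pairs precipitate and input at the maximum by their correlated deviations, with edgeR (0.0466) and after rescaling on the table's median gene (-1.54, 0.00852). At initiation, where that share was 17.5%, it was -1.78 ± 0.67 for H2-Ob (0.0243) and -1.41 ± 0.56 for Ctss (0.0319). Ctss was also called in remission (-1.21 ± 0.47, 0.0379; 15.4% of the table) and cure (-1.50 ± 0.53, 0.0349; 14.8%), and no member was called in relapse (20.4% of the table called in either direction), where edgeR called 140 genes of the table and H2-DMb1 was under 0.05 before adjustment (-1.45 ± 0.65, limma adjusted p = 0.102). Precipitate and input also pair by number at initiation and in remission, and with the replicate block H2-DMb1 was called at initiation (-0.94, adjusted p = 0.216 without and 0.0334 with the block) and Ifi30 in remission (-0.98, 0.11 and 0.0173). In cure and relapse, where not every pair passed the pairing check, the block called 3 members (from 1) and 1 (from 0). The Ctss call in cure was lost with the side as a term (-1.75, adjusted p = 0.391). The H2-Ob call at initiation was lost with a pseudocount of 0.1 (adjusted p = 0.246), and without input 2 (-1.23) or anti-HA 2 (-1.50) of that stage. The 3 Ctss calls other than that at the maximum were lost without single libraries, to -1.14 without initiation input 2, -1.04 without non-immunized input 1 and -1.09 without cure input 5.

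Markers of other cells were few in the table. It holds none of 8 B cell and none of 6 T cell markers, 1 of 9 dendritic cell markers (Cd209a), 1 of 8 monocyte and neutrophil markers (Ms4a4c), 7 of 8 border macrophage markers and 5 of 10 microglial markers; markers outside the table were not analysed here. In the precipitates the summed microglial markers went from 2479 to 5489 in non-immunized mice to 199 to 1059 at the maximum, and P2ry12, a purinergic receptor of resting microglia, fell by 3.36 ± 0.48. In the inputs their sum was 46.5 to 74.4 and 33.3 to 52.0. Border macrophage markers summed to 1055 to 3116 and 989 to 1878 in the precipitates. Ms4a4c rose from 0 to 4.98 in non-immunized precipitates to 9.74 to 52.6 at initiation and 3.30 to 20.5 at the maximum, and in the inputs from 0 to 0.935 to 0 to 10.8 at the maximum. Cd209a fell from 17.0 to 66.8 in non-immunized precipitates to 0 to 4.40 at the maximum. The part of these cells in the members' values was not tested.

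Other genes of the pathway give the setting. All 5 measured genes of the class II core (H2-Aa, H2-Ab1 and H2-Eb1, which encode class II chains, Cd74 and Ciita) were higher in the precipitates at all 5 disease stages, with a median of 4.28 at the maximum; these and the next lists were chosen with earlier results known. H2-Aa went from 1224 ± 454 to 24712 ± 9604 (SD, n = 6 each), a rise of 4.33 ± 0.45 (limma adjusted p = 1.05e-09), and Ciita from 1.19 ± 1.36 to 40.8 ± 14.7. Of 8 endolysosomal proteases and cystatins, 7 were higher at initiation, the maximum and remission, and 1, the protease inhibitor Cst3, was lower (-1.76 ± 0.28 at the maximum). In the test of precipitate against input at the maximum, Ctsc (-2.47 ± 0.60) and Ctsh (-1.88 ± 0.44), which encode cathepsins C and H, had the sign of Ctss. Ciita (2.67 ± 0.69) and the cystatin gene Cstb (1.07 ± 0.31) had the other sign. Of the 5 core genes, that test called 1 higher, 0 lower and 4 not, with a median of -1.29. Of the 8 proteases and cystatins it called 1 higher, 3 lower and 4 not. Over the table it called 174 genes higher and 162 lower.

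By the fixed rule of the 3 genes with the most similar profile over the 33 anti-HA libraries, the members fell in with different genes. Pearson's r of log2 values, which here describes libraries that share stages and depth, was 0.956 for H2-DMa with Psmb8 (an immunoproteasome subunit), 0.954 with Cd40 and 0.954 with Slamf8. For H2-DMb1 it was 0.955 with Dhx58, 0.950 with Slc31a1 and 0.949 with Psmb9. H2-Oa was closest to the class II chain genes H2-Ab1 (0.952), H2-Eb1 (0.945) and H2-Aa (0.931). H2-Ob was closest to Blnk (0.855), an adaptor of B cell receptor signalling, Gpr155 (0.834) and Tnfrsf17 (0.787), which encodes the B cell maturation antigen. Ctss was closest to Tnfsf13b (0.892), Mfsd1 (0.887) and Naip2 (0.865), and Ifi30 to Tspo (0.970), AB124611 (0.967) and the interferon-responsive factor Irf1 (0.960). Between members, r was 0.918 for the 2 DM chains and -0.20 for the 2 DO chains. In the authors' clustering of the table, H2-DMa, H2-DMb1 and H2-Oa share cluster 3 (262 genes), while Ifi30 is in cluster 2 (292), H2-Ob in cluster 1 (124) and Ctss in cluster 4 (23).

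The second table asks how the members depend on the interferon gamma receptor in cells with Cre. The labels name the targeted gene only as Ifngr, and the receptor gene in the table is Ifngr1; where the floxed part lies is not given in the sources used here. In the precipitates Ifngr1 held 299.9, 305, 299 and 232 in ko/wt mice and 81.0, 88.4, 127 and 76.7 in ko/fl mice. The genotypes did not overlap, with ko/fl lower as labelled, and the difference was -1.62 ± 0.24 (limma adjusted p = 0.000358). In the inputs Ifngr1 was 18.3 ± 4.99 and 14.4 ± 4.73 (SD, n = 4 each). All 204 genes of this table differ between the anti-HA genotypes in the authors' own test, so the direction and size of the members' change describe how they entered it, and limma called 61.3% of the table lower. The median gene of this table cannot be taken as unchanged either.

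All 3 members in that table were lower in the precipitates of ko/fl mice, with no overlap between genotypes. H2-DMa was 2184, 3135, 3243 and 2334 in ko/wt mice and 919, 812, 776 and 665 in ko/fl mice, -1.77 ± 0.23 (limma adjusted p = 0.000192). H2-DMb1 was 966, 1252, 1382 and 1016 against 405, 440.3, 368 and 327, -1.57 ± 0.22 (0.000272). H2-Oa was 282, 616, 723 and 318 against 115, 108, 91.2 and 85.2, -2.16 ± 0.33 (0.000497). The spread among ko/wt libraries was widest for H2-Oa, with 2 libraries near 300 and 2 above 600. The authors' deposited table gives -1.78, -1.58 and -2.28 for the same contrast. The 5 class II core genes were also lower, by a median of -3.27; the protease gene Ctsd was 0.92 ± 0.27 higher. Neither Ctss, Ifi30 nor H2-Ob was analysed here for this genotype contrast.

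**Figure D5:**
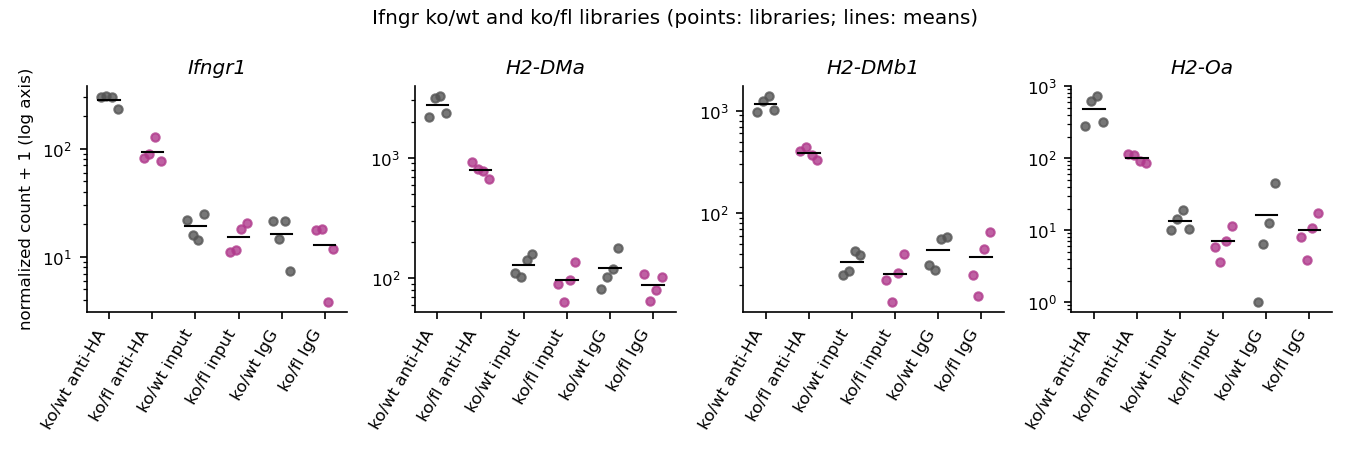
Values + 1 (log axes, 1 point per library, line at the mean) of Ifngr1, H2-DMa, H2-DMb1 and H2-Oa in Ifngr ko/wt and ko/fl mice. Anti-HA, input and IgG libraries are shown, 4 of each kind per genotype. The anti-HA points of the genotypes do not overlap for any of the 4 genes.

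In the homogenate neither limma (0.980% of the table called) nor edgeR (1 gene of the table called) called a member, and 1 member, H2-Oa, was under 0.05 before adjustment. H2-DMa was 127 ± 25.6 in ko/wt and 95.6 ± 30.4 in ko/fl inputs (SD, n = 4 each), -0.44 ± 0.26 (limma adjusted p = 0.881). H2-DMb1 was 32.2 ± 8.55 and 24.4 ± 10.9, -0.46 ± 0.33 (0.881), and H2-Oa 12.4 ± 4.06 and 5.97 ± 3.25, -1.01 ± 0.35 (0.355). The genotype difference was larger in the precipitate than in the input for H2-DMa, by -1.33 ± 0.38 (0.0121), where 36.3% of the table was called in that direction; rescaled on the table's median gene it was -0.72 and not called (0.0642). For H2-DMb1 it was -1.12 ± 0.54 (0.0796) and for H2-Oa -1.15 ± 1.02 (0.3), both not called, with 95% intervals of -2.24 to 0.00 and -3.28 to 0.97. Enrichment over input was called for 3 of 3 members in both genotypes (75.5% and 62.3% of the table called higher), at 4.41, 5.14 and 5.11 in ko/wt mice and 3.08, 4.02 and 3.96 in ko/fl mice for H2-DMa, H2-DMb1 and H2-Oa. Over IgG 3 of 3 were called in both genotypes as well (76.5% and 63.7%). The microglial marker Fcrls, the only one of 10 in this table, held 119 to 494 in ko/wt and 1014 to 1793 in ko/fl precipitates; its part in the members' values was not tested.

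Exons of H2-DMa overlap those of Brd2 on the opposite strand, H2-Oa those of BC051537, and Ifi30 those of 6330537M06Rik. Whether counting used strand is not given in the sources used here, and without it reads of such pairs cannot be told apart.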

How the data were processed

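Libraries of poly(A) mRNA came from anti-HA precipitates, IgG1 mock precipitates and inputs of mouse brain, per the labels' protocols. The deposited values are a signal in the sense of gene counts divided by a size factor per library: 100% of the values in every library were whole multiples of 1 step (tolerance 0.01 of a step plus 1e-07 of the value), which gave whole reads. The genome build is mm10 per the submitters' processing notes; the sources used here do not give the aligner, the counter, the annotation or the use of strand. The authors' deposited tables also hold log2 fold changes, p-values and cluster numbers (an arbitrary label, not a score), which are credited where printed. Counting error limits the precision most for H2-Ob, given the 152704 to 880410 reads per anti-HA library over the table.

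Groups follow the titles. Per comparison, limma 3.58.1 in R 4.3.3 (lmFit and eBayes) was fitted on log2(value + 1) over the whole table, with no filter and two-sided tests: 33 anti-HA libraries between stages, 33 inputs between inputs, all 99 otherwise, and 8, 8 and 24 for the Ifngr table, 39 comparisons in all. Alternatives were pseudocounts of 0.1 and 10, a mean of at least 10, edgeR 4.0.16 quasi-likelihood tests on the recovered reads, rescaling by the median ratio over the table, a replicate block, a side term, remission without replicates 7 and 8, and each library left out. The fitting was tested on simulated data. Python 3.11.15, pandas 2.3.3, numpy 2.4.6, scipy 1.17.1 and matplotlib 3.10.9 were used for the rest.

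The members and lists were chosen with earlier results of these data known. The text names the members in every comparison, the 3 genes nearest to each by Pearson's r, and members of the lists. Same-numbered libraries deviated together, every r over 0.1, in 5 of 12 pairs of a precipitate with the input or IgG of its stage, in 0 of 30 pairs between stages and in 0 of 6 pairs of the Ifngr table. The main fits used group means without pairing. No 2 libraries held identical reads. Groups with a value apart were examined in 132 cases. Other tables of the series were not used here. Counts over the list of interferon gamma response regulators are not reported here.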

Additional observations from a re-analysis of the deposited data

Results flagged for a closer look

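Single libraries stood apart from their group in 17 of the 132 groups of a gene and library kind examined. The measure was the gap of the highest or lowest value to its nearest neighbour, as a share of the group's range. The cut-offs would flag about 1 in 20 groups of independent normal values. These values are counts, low in some groups, and the same libraries recur across genes, so the 17 was not set against chance. Initiation replicate 2 was the highest library for H2-DMb1 in the precipitate (2369) and the input (122), for H2-Oa in the precipitate (1330), the input (48.4) and IgG (60.7), and for H2-DMa in IgG (398). Maximum IgG replicate 2 was the highest for H2-DMb1 (146), H2-Oa (108) and Ifi30 (284). Cure replicate 5 was the highest in IgG for Ctss (690.3), H2-DMa (127) and H2-DMb1 (42.9), and in the input for H2-DMb1 (37.3). The other IgG values apart were 25.9 for H2-DMb1 in non-immunized replicate 4, 2.79 for H2-Ob in non-immunized replicate 5 and 6.78 for H2-Ob in remission replicate 3, the latter 2 resting on few reads. In the second table, Ifngr1 in ko/wt anti-HA replicate 4 was the lowest of its group at 232. The initiation precipitate and input values touch the comparisons of H2-Oa in the report, where the values without replicate 2 are given.

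Changes that differed between precipitate and homogenate were the other reason to look again, each from the limma test of that difference. They were -2.96 for H2-Ob, -2.52 for Ctss and -1.61 for Ifi30 at the maximum, -1.78 for H2-Ob and -1.41 for Ctss at initiation, and -1.21 and -1.50 for Ctss in remission and cure. For H2-DMa the genotype difference was -1.33 log2 units larger in the precipitate. What these differences rest on was not tested.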

How the results depend on the processing

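Of the members' log2 differences under other settings, 3979 kept their side of the threshold, 44 gained a call and 113 lost one. Another 4 changed sign and were called before or after the change. A change of sign in a difference called under neither setting counts among the 3979. The causes were not tested beyond the values given. Called members went as follows. Rescaling by the median ratio gave 3 (from 5) for initiation against non-immunized, 2 (from 1) for remission against the maximum, 0 (from 3) for cure against remission, 1 (from 4) for relapse against the maximum, and, for the difference of changes between precipitate and input (the interaction), 4 at initiation, 3 in remission, 1 in relapse and 0 for the genotypes; Ctss reversed to -0.33 at initiation and -0.15 at the maximum. The side term gave 4 for cure against non-immunized, 0 for remission against the maximum, cure against remission, relapse against the maximum and the cure interaction, and 2 and 3 for cure and relapse inputs; H2-DMa reversed to 0.026 for cure against remission and 0.051 for relapse against the maximum. edgeR gave 0 for the maximum against initiation and 2 for the interactions of remission, cure and genotype. Pseudocount 10 gave 3 for cure inputs, 1 for the relapse and 3 for the genotype interaction, and pseudocount 0.1 gave 1 for the initiation interaction. Remission without 7 and 8 gave 0 against the maximum and 2 for relapse.

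Same-numbered libraries did not pair by the stated check except within 5 pairs of groups of 1 stage, and there the replicate block changed no enrichment call. That check asks for every r over 0.1. The median r of a precipitate with its input or IgG was positive throughout, from 0.10 to 0.32. These kinds of library came from the same homogenates, so missing the check does not show them to be unpaired. In the interactions that rest on disease-stage groups passing the check, the replicate block gave 3 (from 2) at initiation, 4 (from 3) at the maximum and 2 (from 1) in remission. The non-immunized groups did not pass it. Elsewhere the replicate block gave 0 for remission against the maximum and 1 for relapse against remission. It gave 3 (from 1) and 1 (from 0) for the interactions of cure and relapse, and 2 (from 1) for that of genotype.

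With each library left out, called members ranged from 1 to 3 for cure and 3 to 5 for relapse against non-immunized, 0 to 1 for the maximum against initiation and remission against the maximum, 0 to 5 for cure against remission, 2 to 4 for relapse against the maximum, 0 to 2, 0 to 1 and 0 to 2 for the interactions of initiation, remission and cure, and 1 to 2 for genotype. Table counts moved by over 1.5 times in 72 of 744 cases: at the maximum from 635 to 422 genes when rescaled, for remission against the maximum from 150 to 16 with the block and 21 with the side term, for cure against remission from 244 to 4 when rescaled, 399 with the block and 0 with the side term, for relapse against remission from 2 to 152 with the block, and for relapse against the maximum from 383 to 195 when rescaled and 0 with the side term. Few reads of H2-Ob limit its inputs and IgG.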

Other observations

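Some genes of the neighbouring lists stayed higher in the precipitates after the peak. Cst7, which encodes the cathepsin inhibitor cystatin F, was 4.49 ± 0.41 higher at the maximum than in non-immunized mice, 3.36 ± 0.43 in cure and 3.77 ± 0.46 in relapse (limma log2 differences ± SE). Nlrc5, the coactivator of MHC class I genes, was 5.64 ± 0.35, 4.10 ± 0.37 and 4.22 ± 0.40 higher. The class II chain gene H2-Aa was 2.74 ± 0.48 higher in cure and 3.24 ± 0.51 in relapse. The cathepsin gene Ctsz was 1.50 ± 0.25 higher at the maximum and -0.09 ± 0.27 in cure, the latter not called (adjusted p = 0.827).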
